A study of Mus musculus with 6 samples.

Results

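The 35 genes described here encode the enzymes and carriers that turn glucose into lactate and a set of genes known to be induced by low oxygen. They were chosen as a fixed list of names, matched to the gene name of each array probe and represented by the brightest probe of each gene. All 35 were among the 22097 genes tested, and 32 of them were well above background on every array in both channels. The cells were M-MDSCs (monocytic myeloid-derived suppressor cells), which are immature and restrain T cells, sorted by flow cytometry from bone marrow or lung. Mice of one arm received vehicle (mock), and those of the other received azacytidine, which blocks DNA methyltransferases, with entinostat, which blocks class I histone deacetylases. All groups were C57BL/6 with no other genotype given, the mock mice were 6 to 8 weeks old, and the labels give neither the age of the treated mice nor a dose or duration. The 3 bone marrow arrays and the 3 lung arrays were dual-colour, and every array paired a Cy3-labelled mock RNA with a Cy5-labelled treated RNA from the same tissue. A mock RNA came from 1 to 2 mice and a treated RNA was pooled from 3 to 6, so the treated channel averages over more animals than the mock channel.

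Glycolysis splits glucose into pyruvate and yields energy without oxygen, and lactate dehydrogenase with the monocarboxylate carriers disposes of the product. When oxygen falls, prolyl hydroxylases of the Egln family stop marking Hif1a for destruction, and the stabilised factor binds a short core sequence near its target genes, among them many glycolytic enzymes. Activated and suppressive myeloid cells are known for a high rate of glycolysis, and the Hif1a pathway is known to act in myeloid cells of hypoxic tissue.

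Promoters are shown for 6 members because the results below turn on them: Pgk1 and Ldha were higher in treated cells of both tissues, Eno1 and Aldoc were higher in lung, and Ddit4 and Pfkfb4 responded differently in the 2 tissues. Each run is the 250 bases before the most upstream RefSeq start of the gene, read 5′ to 3′ on the strand of the gene. Capitals mark the hypoxia response core, ACGTG or GCGTG, found on either strand, so that CACGT and CACGC are matches too. A CACGTG counts as 2 overlapping matches. The regions lie on GRCm38.p6 at chrX:106186850-106187099 on the plus strand for Pgk1, chr7:46845554-46845803 on the plus strand for Ldha and chr4:150236458-150236707 on the plus strand for Eno1. Aldoc is read from chr11:78322823-78323072 on the plus strand, Ddit4 from chr10:59951771-59952020 on the minus strand and Pfkfb4 from chr9:108991652-108991901 on the plus strand.
Pgk1: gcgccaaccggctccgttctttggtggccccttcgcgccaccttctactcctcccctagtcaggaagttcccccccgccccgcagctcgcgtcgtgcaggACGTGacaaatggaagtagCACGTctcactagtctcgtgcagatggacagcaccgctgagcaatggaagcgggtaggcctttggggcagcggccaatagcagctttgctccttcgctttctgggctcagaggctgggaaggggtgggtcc
Ldha: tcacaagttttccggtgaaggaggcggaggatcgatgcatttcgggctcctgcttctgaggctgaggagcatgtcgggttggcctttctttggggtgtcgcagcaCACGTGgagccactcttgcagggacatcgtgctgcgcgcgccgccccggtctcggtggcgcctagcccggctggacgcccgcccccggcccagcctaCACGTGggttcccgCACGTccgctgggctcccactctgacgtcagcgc
Eno1: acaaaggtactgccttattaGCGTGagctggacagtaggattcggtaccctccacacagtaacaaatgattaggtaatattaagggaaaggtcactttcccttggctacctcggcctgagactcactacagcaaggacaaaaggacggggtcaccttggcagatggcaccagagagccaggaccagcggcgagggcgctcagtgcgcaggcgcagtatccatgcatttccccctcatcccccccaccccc
Aldoc: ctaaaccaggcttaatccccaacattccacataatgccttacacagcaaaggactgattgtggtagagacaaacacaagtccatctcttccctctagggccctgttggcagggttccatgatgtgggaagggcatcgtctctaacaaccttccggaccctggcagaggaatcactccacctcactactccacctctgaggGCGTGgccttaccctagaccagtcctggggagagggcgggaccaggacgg
Ddit4: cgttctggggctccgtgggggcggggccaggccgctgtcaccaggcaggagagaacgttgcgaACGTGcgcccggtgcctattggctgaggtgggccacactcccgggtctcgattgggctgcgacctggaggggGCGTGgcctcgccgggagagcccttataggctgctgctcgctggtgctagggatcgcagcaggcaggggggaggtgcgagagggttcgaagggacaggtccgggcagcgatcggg
Pfkfb4: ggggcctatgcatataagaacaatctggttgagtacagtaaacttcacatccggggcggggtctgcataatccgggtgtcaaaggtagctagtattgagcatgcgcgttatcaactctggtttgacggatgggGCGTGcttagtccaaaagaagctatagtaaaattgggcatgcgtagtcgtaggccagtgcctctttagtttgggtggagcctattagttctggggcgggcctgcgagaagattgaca

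The core was present 5 times in the Ldha window, 2 times in those of Pgk1 and Ddit4, and 1 time in those of Eno1, Aldoc and Pfkfb4. RefSeq promoters matched 32 of the 35 members, with no entry for Slc2a3, Ndrg1 and Angptl4. Of these 32, 25 held at least 1 core in the 250 bases (78.1%), against 38.6% of the 32851 promoters in the table. The shares are not fully alike, because the first takes 1 start per gene and the second takes every promoter listed. Members were also listed as known targets of the hypoxia factor, so the comparison is a description only. The member promoters were also richer in G and C, with a median of 61.0% against 52.4%, and how far that accounts for the share was not tested. The 7 windows without the core were those of Aldoa, Eno2, Gpi1, Hk1, Pkm, Tpi1 and Vegfa. A match describes these letters and is not a binding site, and its absence says only that these letters are not in this window.

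The share of spots well above background was 49.9% to 62.8% for mock RNA and 55.1% to 69.5% for treated RNA, and 0 probes were saturated. Precision is limited by the number of arrays. Mock RNA was in Cy3 on every array, so treatment and dye cannot be told apart, and the tissues were on different slides, so slide and tissue cannot be told apart. The labelled cell type was checked against 10 monocyte markers, each of which was well above background on some array, though not necessarily every array, in both tissues and channels. The same held for 13 neutrophil markers, so this check cannot tell the cell types apart. In mock bone marrow the summed level was 250000 to 273000 intensity units for the monocyte markers and 460000 to 482000 for the neutrophil markers. In bulk RNA, fewer cells of a type and less RNA per cell cannot be told apart.

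The response to treatment is given as the log2 ratio of treated over mock on each array, so that 1 means a doubling and a negative value means lower in treated cells. A member was called when limma's adjusted p, taken over all genes tested, was below 0.05. In bone marrow 8 of 35 members were called, 6 higher and 2 lower, against 14.4% of all genes. In lung 15 of 35 were called, 13 higher and 2 lower, against 34.0% of all genes. These shares of all genes include dim ones. Among genes well above background on every array and channel, 8 of 32 members were called in bone marrow, against 21% of such genes. In lung 14 of 32 were called, against 39.3%. The higher calls were 6 of 35 in bone marrow against 7.25% of all genes, and 13 of 35 in lung against 20.0%; the lower calls were 2 of 35 in each tissue, against 7.14% and 14.0%. The median log2 ratio of the members was 0.03 in bone marrow and 0.17 in lung, where the median of all genes was 0.024 and 0.014. The bone marrow calls were 0 when the loess step was replaced by centring on the median (limma; 10 members at an unadjusted p under 0.05), 4 (2 higher and 2 lower) after scaling between arrays, and 2 to 9 when 1 array was left out; the lung calls were 3 (2 higher and 1 lower), 12 (9 higher and 3 lower) and 9 to 15. With the scanner software's own processed signals the lung calls were 8, 6 higher and 2 lower.

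**Figure D1:**
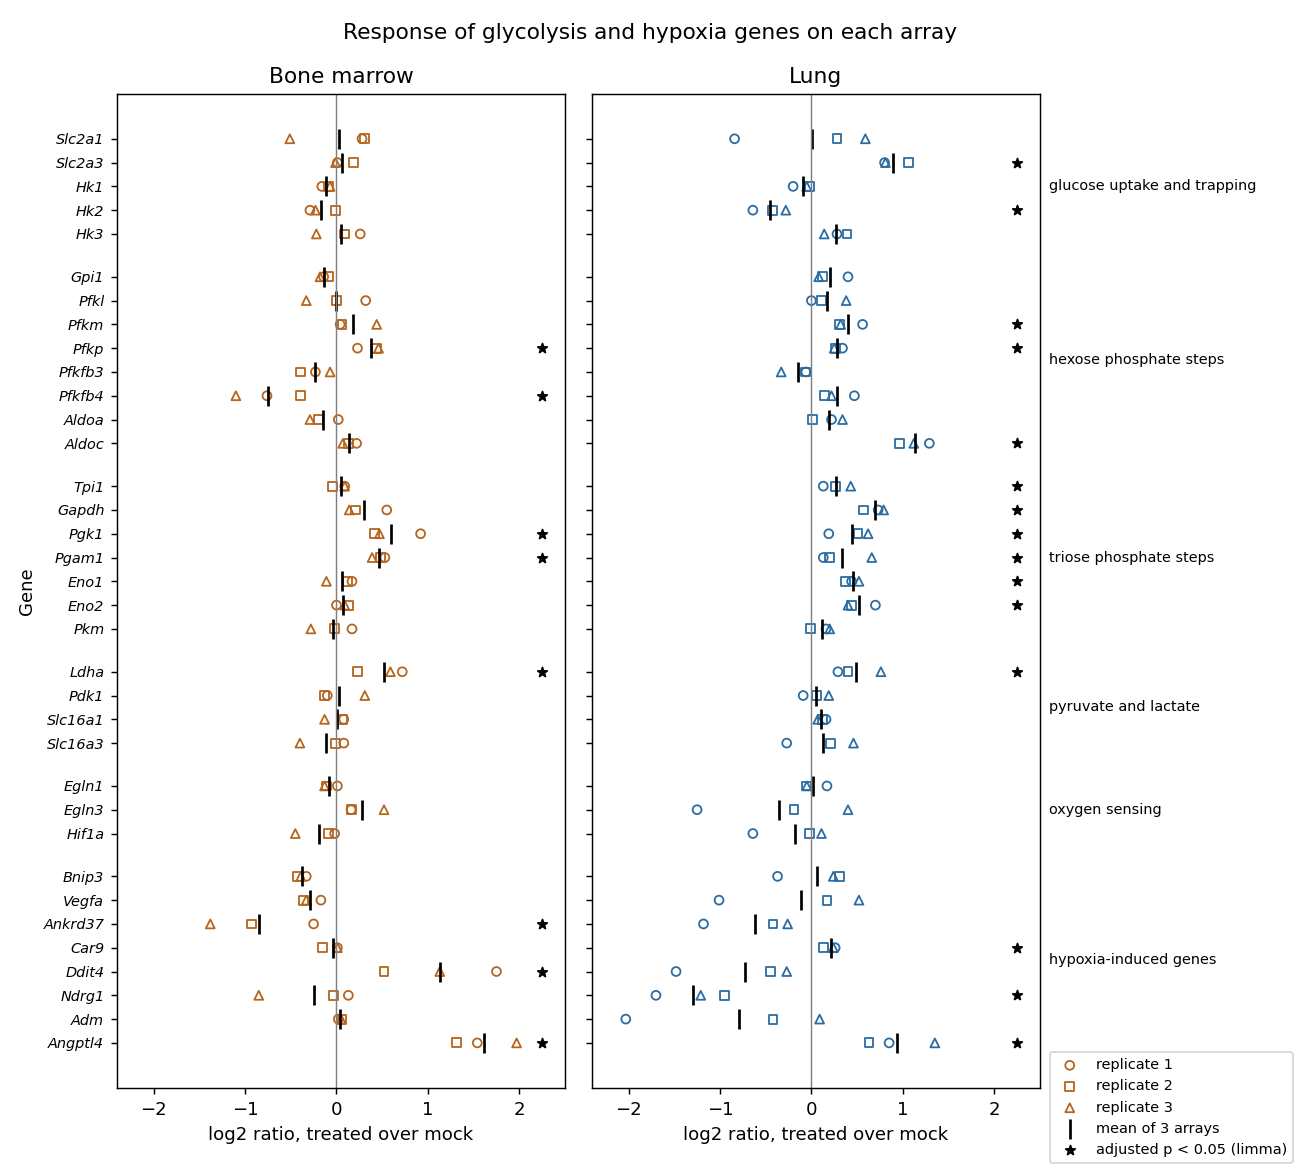
Log2 ratio of treated over mock (horizontal axis) for each of the 35 genes (vertical axis, grouped by role) on the 3 bone marrow arrays (left) and the 3 lung arrays (right); symbols are arrays, bars are the mean of 3 arrays and stars mark an adjusted p below 0.05 in limma. The 7 genes of the triose phosphate steps have positive means in lung, and the hypoxia-induced genes spread from -2.03 for Adm on lung replicate 1 to 1.97 for Angptl4 on bone marrow replicate 3.

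Glucose uptake moved in 1 transporter. Slc2a3, a high-affinity glucose transporter, had log2 ratios of 0.01, 0.19 and -0.01 on the bone marrow arrays and 0.80, 1.06 and 0.81 on the lung arrays. The tissues did not overlap, and all 3 lung arrays were above every bone marrow array. It rose 1.85-fold in treated lung cells (log2 0.89 ± 0.15, SD, n = 3, adjusted p = 0.000258 in limma), while the bone marrow mean was 0.06 ± 0.11 (adjusted p = 0.616). The difference between tissues was 0.83 (SE 0.11, adjusted p = 0.00431). Slc2a1, the basal glucose transporter, gave 0.28, 0.31 and -0.51 in bone marrow and -0.84, 0.28 and 0.59 in lung. Its arrays lay on both sides of 0 in each tissue, and neither mean passed the test.

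Of the hexokinases, which trap glucose as its phosphate, 1 fell and none rose. Hk2, the inducible hexokinase, had ratios of -0.64, -0.43 and -0.28 in lung, all below 0, and fell by 0.45 ± 0.18 (adjusted p = 0.00658). In bone marrow it gave -0.29, -0.01 and -0.23, with a mean of -0.17 that did not pass (adjusted p = 0.212). Hk1 had means of -0.11 ± 0.05 in bone marrow and -0.09 ± 0.09 in lung, and Hk3, the hexokinase of blood cells, 0.05 ± 0.24 and 0.27 ± 0.13; none of the 4 passed. The brightest Hk1 probe names no RefSeq gene, and the dimmest of its 3 probes was higher in lung (log2 0.34, adjusted p = 0.0249 over all probes).

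Of the 8 members at the hexose phosphate steps, 2 were called in bone marrow and 3 in lung. Aldoc, an aldolase that splits the hexose bisphosphate, gave 0.22, 0.13 and 0.07 in bone marrow and 1.29, 0.96 and 1.12 in lung. Every lung array was above every bone marrow array. It rose 2.18-fold in lung (log2 1.13 ± 0.17, adjusted p = 0.000115), and the tissues differed by 0.99 (SE 0.11, adjusted p = 0.00227). Aldoa, the main aldolase of most cells, had means of -0.15 ± 0.16 in bone marrow and 0.19 ± 0.16 in lung and passed in neither.

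Pfkfb4, which makes and removes the activator of phosphofructokinase, had ratios of -0.76, -0.39 and -1.10 in bone marrow and 0.47, 0.14 and 0.22 in lung. The arrays of bone marrow were all negative and those of lung all positive. It was 1.68-fold lower in treated bone marrow cells (log2 -0.75 ± 0.35, adjusted p = 0.012), its lung mean of 0.28 did not pass (adjusted p = 0.138), and the tissues differed by 1.03 (SE 0.18, adjusted p = 0.0114). A dimmer Pfkfb4 probe gave -0.19 and -0.07 with no call, and the bone marrow call was lost without bone marrow replicate 1 (0.0554). Pfkfb3, the related enzyme, had means of -0.23 ± 0.16 and -0.15 ± 0.15, neither called. Its dimmer probe was lower in lung (-0.29, adjusted p = 0.0281 over all probes) and was not called in bone marrow (-0.02).

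Of the 3 phosphofructokinase genes, whose products catalyse the committed step, Pfkp gave 0.23, 0.44 and 0.46 in bone marrow and 0.34, 0.26 and 0.25 in lung. All 6 arrays were positive, and it rose 1.30-fold in bone marrow (log2 0.38 ± 0.13, adjusted p = 0.0136) and 1.22-fold in lung (0.28 ± 0.05, adjusted p = 0.0145). The bone marrow call was lost without bone marrow replicate 2 (0.0809) or 3 (0.0637). Leaving out any 1 lung array took the lung adjusted p to between 0.0513 and 0.0596, and a dimmer Pfkp probe gave -0.07 in lung. Pfkm rose in lung, with ratios of 0.56, 0.31 and 0.32 and a mean of 0.40 ± 0.14 (adjusted p = 0.0152), which became 0.0674 without lung replicate 1; its bone marrow ratios were 0.04, 0.06 and 0.44. Pfkl, with means of 0.00 and 0.17, and Gpi1, the isomerase before this step, with -0.14 and 0.20, passed in neither tissue.

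The triose phosphate steps, the energy-yielding second part of the pathway, held the most calls of any role in lung: 6 of 7 members rose there, and 2 of 7 in bone marrow. Gapdh, which oxidises the triose, gave 0.55, 0.21 and 0.14 in bone marrow and 0.73, 0.57 and 0.79 in lung. All lung arrays were above all bone marrow arrays. It rose 1.62-fold in lung (log2 0.70 ± 0.11, adjusted p = 0.00124); the bone marrow mean of 0.30 ± 0.22 did not pass (adjusted p = 0.0643), nor did the difference of 0.40 (adjusted p = 0.0755). All 8 Gapdh probes were higher in lung, with log2 means from 0.33 to 0.70 and adjusted p values over all probes up to 0.0278. In bone marrow their means ran from 0.14 to 0.35. The probes at 0.33 and 0.35, both on chromosome 6, were called (adjusted p = 0.0487 and 0.0387 over all probes), and the others were not. With background from negative control spots, Gapdh was called in bone marrow (0.27, adjusted p = 0.0406 in limma) and its tissue difference passed (0.42, adjusted p = 0.0365). Gapdh belongs to a family with many processed copies in the genome, and the brightest of its probes is placed on chromosome 7 (mm9, 59003199 to 59003257) while the gene is on chromosome 6.

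Pgk1, which makes the first ATP of this part, gave 0.92, 0.42 and 0.47 in bone marrow and 0.19, 0.51 and 0.62 in lung. It rose 1.52-fold in bone marrow (log2 0.60 ± 0.28, adjusted p = 0.0187) and 1.36-fold in lung (0.44 ± 0.22, adjusted p = 0.0246). Its probe is placed on chromosome 3 (mm9, 57906830 to 57906894) while the gene is on chromosome X, so a copy of the gene could share the signal. Pgam1, the mutase that follows, gave 0.53, 0.48 and 0.39 in bone marrow and 0.13, 0.20 and 0.66 in lung. It rose 1.38-fold in bone marrow (0.47 ± 0.07, adjusted p = 0.0256) and 1.26-fold in lung (0.33 ± 0.28, adjusted p = 0.0406). Both genes were positive on all 6 arrays, and the tissues overlapped.

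Both enolases rose in lung. Eno1, the enolase of most cells, gave 0.17, 0.12 and -0.11 in bone marrow and 0.44, 0.37 and 0.52 in lung. The arrays did not overlap, the lung mean was 0.45 ± 0.08 (1.36-fold, adjusted p = 0.00322), and the tissues differed by 0.39 (SE 0.10, adjusted p = 0.0454), a call lost without any 1 of the 6 arrays (0.062 to 0.12). Eno2, the enolase best known from neurons, gave 0.70, 0.44 and 0.40 in lung with a mean of 0.52 ± 0.17 (adjusted p = 0.00197). In bone marrow it was not well above background on any array in either channel, with ratios of 0.00, 0.13 and 0.09, so its tissue difference of 0.44 (SE 0.11, adjusted p = 0.0324) compares a measured response with a dim probe; it lost its call without any array but lung replicate 3 (0.0529 to 0.0893). Tpi1, the triose isomerase, gave 0.09, -0.04 and 0.09 in bone marrow and 0.13, 0.26 and 0.43 in lung, with a lung mean of 0.27 ± 0.15 (adjusted p = 0.0239). A dimmer Tpi1 probe gave 0.64, 0.49 and 0.64 in lung (mean 0.59, adjusted p = 0.000711 over all probes). Pkm, the pyruvate kinase, was the member of this step that passed in neither tissue, at -0.04 ± 0.23 and 0.12 ± 0.11.

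Ldha, which reduces pyruvate to lactate, rose in both tissues. It gave 0.72, 0.23 and 0.59 in bone marrow and 0.29, 0.40 and 0.76 in lung. All 6 arrays were positive and the tissues overlapped. The rise was 1.43-fold in bone marrow (log2 0.52 ± 0.25, adjusted p = 0.0291) and 1.40-fold in lung (0.49 ± 0.24, adjusted p = 0.0162), and all 3 Ldha probes were called higher in lung. In bone marrow the other 2 probes gave 0.35 and 0.23 and were not called (adjusted p = 0.0579 and 0.129 over all probes), and the mean over the probes lost the call (0.37, adjusted p = 0.0522). The carriers that export lactate did not pass: Slc16a1 had means of 0.01 and 0.11, and Slc16a3 means of -0.11 and 0.13. Pdk1, which holds pyruvate back from the mitochondria, had means of 0.03 ± 0.25 and 0.05 ± 0.14.

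Among the called members, Pfkp, Pgk1, Pgam1, Ldha and Angptl4 were higher in both tissues, 5 of 35 (14.3%) against 3.43% of all genes tested. In bone marrow, Pgk1, Pgam1 and Ldha each lost the call with scaling between arrays (adjusted p 0.0828, 0.051 and 0.0742). The same scaling ended the lung calls of Pgk1 (0.292), Pgam1 (0.187), Ldha (0.168) and Angptl4 (0.0981). The scanner software's processed signals ended the lung calls of Pfkp (0.114), Pgk1 (0.0837), Pgam1 (0.0806) and Ldha (0.0501), which left only Angptl4 called higher in both tissues. With median centring in place of loess, all 5 lost the call in both tissues. In bone marrow Pgk1 (0.0556 to 0.0672) and Pgam1 (0.0774 to 0.125) also lost the call without any 1 bone marrow array, and Ldha without bone marrow replicate 1 (0.116) or 3 (0.118) or lung replicate 2 (0.0548). In lung, Pgk1, Pgam1, Ldha and Tpi1 lost the call without lung replicate 2 or without lung replicate 3, with adjusted p values of 0.0509 to 0.189 and means above 0. The lung call of Pgam1 was also lost without any 1 bone marrow array (0.0538 to 0.0708).

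The oxygen sensors passed the test in neither tissue. Hif1a gave -0.02, -0.09 and -0.45 in bone marrow and -0.64, -0.02 and 0.11 in lung. Egln1, the main prolyl hydroxylase, had means of -0.08 ± 0.08 and 0.02 ± 0.13 and was above background on 1 of 3 bone marrow arrays. Egln3, a hydroxylase that is itself induced by hypoxia, gave 0.16, 0.16 and 0.52 in bone marrow and -1.25, -0.19 and 0.40 in lung. In lung the lowest value of Hif1a and of Egln3 was on replicate 1.

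Of the 8 hypoxia-induced genes, 2 rose and 1 fell in bone marrow, and 2 rose and 1 fell in lung. Angptl4, a secreted inhibitor of lipoprotein lipase that responds to PPAR factors as well as to hypoxia, gave 1.54, 1.31 and 1.97 in bone marrow and 0.85, 0.63 and 1.35 in lung. Every array was positive, and the tissues overlapped only through lung replicate 3. It rose 3.05-fold in bone marrow (log2 1.61 ± 0.33, adjusted p = 0.00233) and 1.92-fold in lung (0.94 ± 0.37, adjusted p = 0.00349); the difference of -0.66 did not pass (adjusted p = 0.0847). With scaling between arrays the lung rise of Angptl4 was 0.86 and did not pass (adjusted p = 0.0981).

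Ddit4, an inhibitor of the growth kinase complex mTORC1 that hypoxia, stress and glucocorticoids induce, gave 1.75, 0.52 and 1.13 in bone marrow and -1.48, -0.45 and -0.27 in lung. It was higher on all bone marrow arrays and lower on all lung arrays. The bone marrow rise was 2.19-fold (log2 1.13 ± 0.61, adjusted p = 0.0347), the lung mean of -0.73 ± 0.65 did not pass (adjusted p = 0.0736), and the tissues differed by -1.87 (SE 0.38, adjusted p = 0.019). The bone marrow call was lost without any 1 bone marrow array (0.0544 to 0.134) or lung replicate 2 (0.0582), and the difference without bone marrow replicate 1 (0.0588) or replicate 3 (0.0548). Scaling between arrays also ended both calls, with an adjusted p of 0.0854 in bone marrow and 0.103 for the difference.

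Ndrg1, a stress-responsive gene of the hypoxia programme, gave 0.13, -0.03 and -0.85 in bone marrow and -1.70, -0.95 and -1.21 in lung. All lung arrays were below all bone marrow arrays. It was 2.44-fold lower in treated lung cells (log2 -1.29 ± 0.38, adjusted p = 0.00261), and the tissues differed by -1.04 (SE 0.28, adjusted p = 0.0478). That difference lost its call without any array but bone marrow replicate 3 (0.0565 to 0.155).

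Ankrd37 gave -0.25, -0.93 and -1.38 in bone marrow and -1.18, -0.42 and -0.26 in lung, negative on all 6 arrays. It was 1.81-fold lower in bone marrow (log2 -0.85 ± 0.57, adjusted p = 0.0481) and did not pass in lung at -0.62 ± 0.49 (adjusted p = 0.0748). Without bone marrow replicate 2 or 3 its adjusted p was 0.208 or 0.2, and without lung replicate 2 it was 0.0789. Car9, a carbonic anhydrase often used as a hypoxia marker, had lung ratios of 0.26, 0.13 and 0.24 and a small rise of 0.21 ± 0.07 (adjusted p = 0.0373), lost without any 1 lung array (0.0726 to 0.151); its bone marrow ratios were 0.01, -0.15 and 0.01. Bnip3, a mitophagy receptor, gave -0.33, -0.43 and -0.39 in bone marrow and -0.37, 0.31 and 0.24 in lung. Its bone marrow mean of -0.38 ± 0.05 varied little between arrays but did not pass in the fit that shares its spread with lung (adjusted p = 0.0773); in a separate fit of bone marrow the adjusted p was 0.0177. The other 2 Bnip3 probes had bone marrow means of -0.14 (ratios of -0.09, 0.06 and -0.39) and -0.08, neither called.

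**Figure D2:**
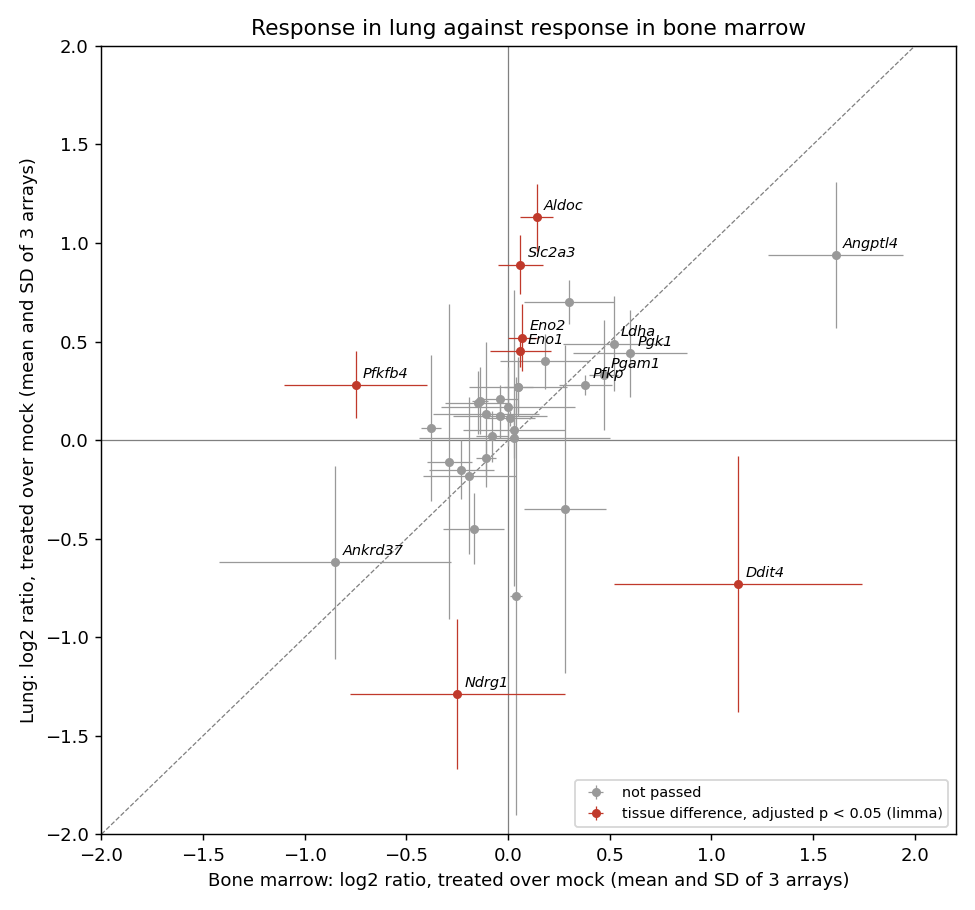
Mean log2 ratio in lung (vertical axis) against that in bone marrow (horizontal axis) for the 35 genes; bars are the SD of 3 arrays, the dashed line marks equal response, and red points have a tissue difference with an adjusted p below 0.05 in limma. Aldoc (1.13 against 0.14), Slc2a3, Eno1, Eno2 and Pfkfb4 lie above the line, and Ddit4 (-0.73 against 1.13) and Ndrg1 lie below it.

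The response itself was compared between tissues in 1 test per gene. Of 35 members, 7 differed, 5 with a larger ratio in lung (Slc2a3, Pfkfb4, Aldoc, Eno1 and Eno2) and 2 with a smaller one (Ddit4 and Ndrg1), against 15.2% of all genes (9.78% larger and 5.46% smaller). The ratios of 11 members did not overlap between the tissues, against 40.4% of all genes. The 5 members that were higher in both tissues had differences between -0.66 and -0.03, none called. With median centring in place of loess, 0 of the 7 differences passed (5 members at an unadjusted p under 0.05), and that of Eno1 was 0.01.

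Lung replicate 1 stood apart from the other lung arrays for several hypoxia genes, a pattern noticed after the values were seen. Adm, a vasodilator peptide that hypoxia induces, had lung ratios of -2.03, -0.42 and 0.09 and passed in lung only without lung replicate 3 (-1.22, adjusted p = 0.0292). Its bone marrow ratios were 0.02, 0.06 and 0.05. Vegfa, the vascular growth factor, had -1.01, 0.17 and 0.52 in lung and -0.17, -0.36 and -0.33 in bone marrow, with no call in either. The median ratio over the 8 hypoxia-induced genes was -1.10 on lung replicate 1, -0.14 on replicate 2 and 0.17 on replicate 3.

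The normalised log2 level of Adm in mock lung was 9.15, 7.53 and 7.33, while treated lung had 7.12, 7.12 and 7.42. Mock Slc2a1 was 12.31, 11.31 and 11.09 against treated levels of 11.47, 11.59 and 11.67, and mock Egln3 was 8.61, 7.51 and 7.32 against 7.37, 7.31 and 7.72. In these genes the mock sample of replicate 1 was high and its treated sample was close to the others. Vegfa differed in both channels, with mock levels of 9.60, 8.82 and 8.77 and treated levels of 8.59, 8.99 and 9.29. The ratio was lowest on lung replicate 1 for 19 of 35 members, against 41.3% of all genes. The mock level was highest on lung replicate 1 for 24 of 35, against 37.5% of all genes, and the treated level was lowest there for 9 of 35, against 41.4%. The median excess of mock lung replicate 1 over the mean of the other two was 0.53 for the 11 hypoxia-induced and oxygen-sensing members, 0.20 for the other 24, and -0.01 for all genes.

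Without lung replicate 1, Bnip3 (log2 0.27, adjusted p = 0.027) and Vegfa (0.35, adjusted p = 0.0429) were called higher in lung, Bnip3 was called lower in bone marrow (-0.38, adjusted p = 0.00709), and Pfkm, Pfkp and Car9 were no longer called in lung. The tissue differences of Bnip3 (0.65, adjusted p = 0.00584) and Vegfa (0.64, adjusted p = 0.0248) then passed. The summed level of 13 macrophage markers was lowest in the mock sample of that array (39200, against 53900 and 62200 intensity units), and that of 10 monocyte markers was lowest too (285000, against 323000 and 339000). The alveolar macrophage sum (100000, against 153000 and 151000) and the endothelial sum (10900, against 14800 and 12400) were lowest there as well. The alveolar sum leans on its brightest marker, Chil3, at log2 levels of 16.04, 16.84 and 16.78. The single alveolar markers were mixed: Pparg, Ear1, Ear2, Fabp1 and Cidec were also lowest there, while Marco, Krt79, Plet1 and Spp1 were highest. The fibroblast sum was highest there (6010, against 5650 and 3610). The epithelial keratins, named after their values were seen, were also highest in that mock sample, with Krt8 at 12.26, 10.50 and 9.86 and Krt18 at 12.72, 10.93 and 9.87, and their lung ratios were -1.27, -0.24 and 1.18 and -1.09, -0.31 and 1.76. None of the other lung epithelial markers was highest there. The sum of all 8 was 28200, against 35700 and 19000, so the list as a whole did not follow the keratins. The part of these cells in the pattern was not tested.

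**Figure D3:**
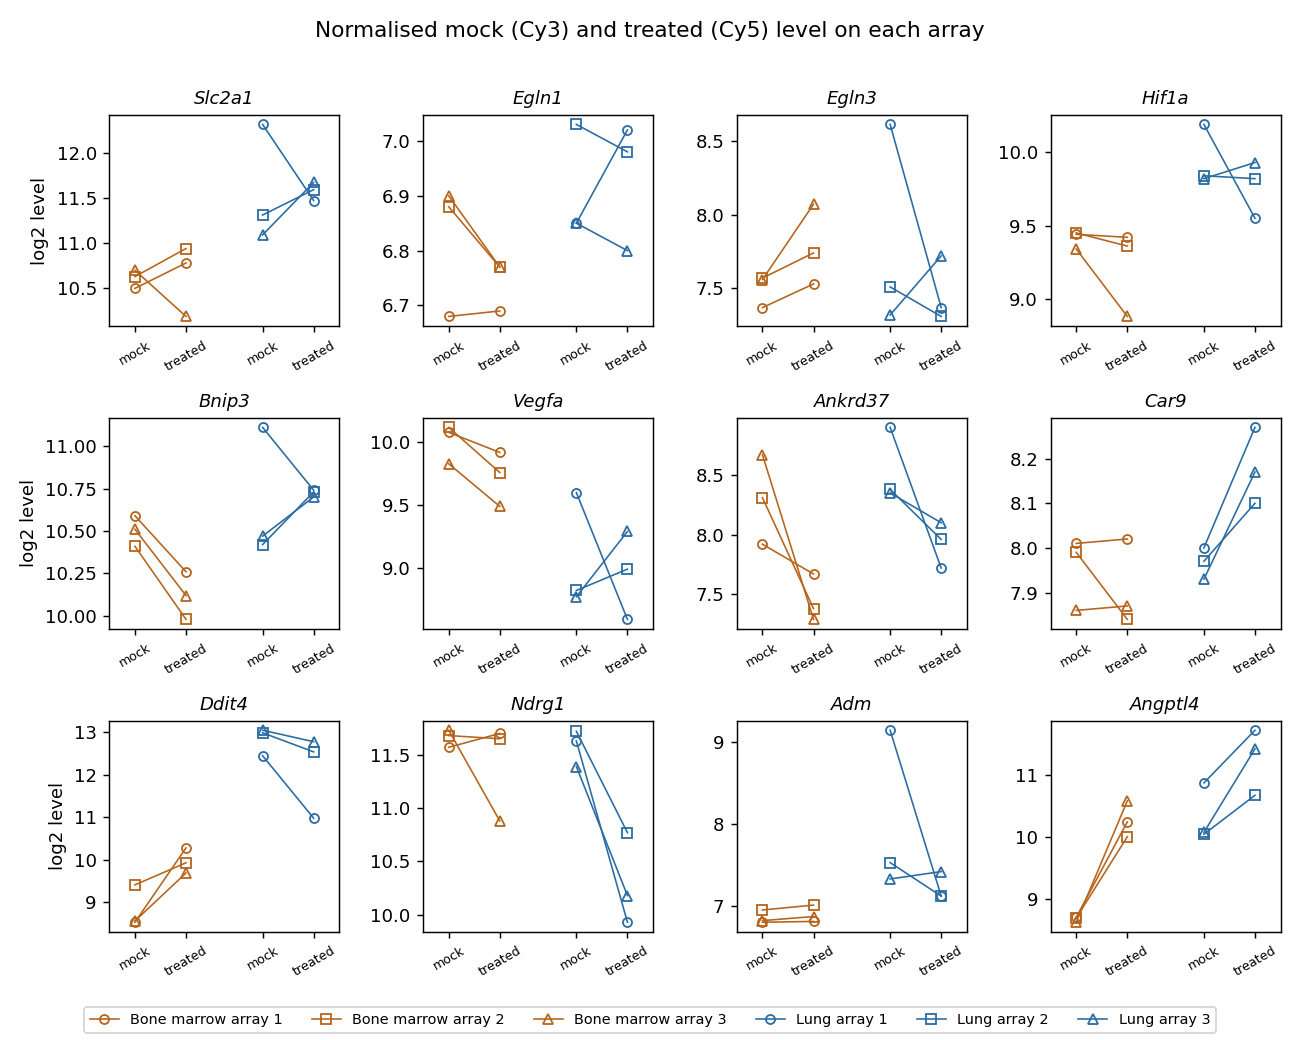
Normalised log2 level in the mock (Cy3) and treated (Cy5) channel, joined by a line for each array, for Slc2a1 and the 11 oxygen-sensing and hypoxia-induced genes; each panel has its own vertical scale. In mock lung, array 1 lies above the others for Slc2a1, Bnip3, Egln3, Vegfa, Ankrd37, Adm, Hif1a and Angptl4 (Adm 9.15 against 7.53 and 7.33), and for Ddit4 mock lung lies above mock bone marrow by 4.0.

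Mock cells of the tissues differed in 21 of 35 members, 9 higher and 12 lower in lung, where 64.9% of all genes differed (31.9% higher and 33.1% lower). Mock levels did not overlap between tissues for 23 members, against 71.9% of all genes. Values are normalised log2 levels of the Cy3 channel, and each is compared with the same probe in the other tissue only.

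The widest gap was that of Ddit4, at 8.53, 9.41 and 8.56 in mock bone marrow and 12.45, 12.99 and 13.05 in mock lung, 16.0-fold higher in lung (difference 4.0, SE 0.25, adjusted p = 6.66e-06). In treated cells its level was 10.28, 9.93 and 9.69 in bone marrow and 10.98, 12.54 and 12.78 in lung, so the tissues were closer after treatment but did not overlap. Angptl4 was at 8.70, 8.69 and 8.62 in bone marrow and 10.87, 10.04 and 10.07 in lung (3.16-fold, adjusted p = 0.00023). Both genes had arrays that did not overlap between the tissues.

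Adm was at 6.80, 6.95 and 6.82 in bone marrow and 9.15, 7.53 and 7.33 in lung (difference 1.15, adjusted p = 0.0417); it was above background on 2 of 3 bone marrow arrays, and its call was lost without any 1 bone marrow array (0.0904 to 0.107). Hif1a was at 9.44, 9.45 and 9.34 in bone marrow and 10.19, 9.84 and 9.82 in lung (0.54, adjusted p = 0.00296). Vegfa was at 10.08, 10.12 and 9.83 in bone marrow and 9.60, 8.82 and 8.77 in lung (-0.95, adjusted p = 0.00515), but a second Vegfa probe was higher in lung by 2.92, so its direction depends on the probe.

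At the entry to glycolysis, 2 hexokinases were lower in mock lung. Hk2 was at 11.85, 11.78 and 12.10 in bone marrow and 9.87, 9.76 and 9.66 in lung, 4.43-fold lower in lung (difference -2.15, SE 0.10, adjusted p = 1.63e-06). Hk3 was at 11.42, 11.89 and 11.32 against 9.85, 9.90 and 9.80, 3.23-fold lower (-1.69, SE 0.14, adjusted p = 2.8e-05). The arrays of the tissues were far apart for both. Of the transporters, Slc2a1 was higher in lung, at 10.50, 10.63 and 10.70 against 12.31, 11.31 and 11.09 (0.96, adjusted p = 0.0171; 0.0574 and 0.0533 without bone marrow replicate 1 and 2). Slc2a3 was lower, at 8.44, 8.40 and 8.30 against 7.85, 7.88 and 7.64 (-0.59, adjusted p = 6e-04). In treated cells the order of Slc2a3 was lost, with 8.45, 8.60 and 8.28 in bone marrow and 8.65, 8.94 and 8.45 in lung.

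At the hexose phosphate steps, Aldoc was at 8.41, 8.79 and 8.47 in mock bone marrow and 10.44, 9.92 and 10.23 in mock lung, 3.12-fold higher in lung (1.64, SE 0.15, adjusted p = 4.26e-05). With treatment it rose further there, to 11.74, 10.88 and 11.36, so Aldoc was higher in lung at the outset and responded in lung. Gpi1 was at 15.29, 15.38 and 15.24 against 14.34, 14.59 and 14.52 (-0.82, adjusted p = 8.85e-05), and Pfkl at 9.32, 9.70 and 9.73 against 9.10, 8.55 and 8.39 (-0.90, adjusted p = 0.00385). Pfkp was at 9.90, 9.75 and 9.76 against 9.38, 9.43 and 9.32 (-0.43, adjusted p = 0.00138), and Pfkfb4 at 12.13, 12.11 and 12.09 against 11.53, 11.85 and 11.60 (-0.45, adjusted p = 0.00342). These 4 genes were lower in lung, although a dimmer Pfkp probe was higher there by 0.39. Pfkfb3 was at 9.66, 9.70 and 9.45 against 10.47, 10.55 and 10.59 (0.94, adjusted p = 4.37e-05), while its other probe was lower in lung, with a difference of -1.33.

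At the triose phosphate steps, 3 members were lower and 2 were higher in mock lung. Pgk1 was at 13.43, 14.00 and 13.81 in mock bone marrow and 13.21, 12.72 and 12.71 in mock lung (-0.87, adjusted p = 0.00346). Tpi1 was at 13, 13.24 and 13.27 against 13.05, 12.45 and 12.48 (-0.51, adjusted p = 0.0271), with overlap and a call lost without bone marrow replicate 2 or 3 or lung replicate 2 or 3 (0.0788 to 0.0908); its dimmer probe differed by -0.99. Gapdh was at 15.67, 15.95 and 15.93 against 15.54, 15.32 and 15.20 (-0.50, adjusted p = 0.0055). Of its 8 probes, 6 had lower means in lung and 2 were higher by 1.84 and 3.09, so the direction in mock cells depends on the probe. Eno1 was slightly higher in lung, at 13.79, 13.96 and 13.90 against 14.32, 14.13 and 14.04 (0.28, adjusted p = 0.026), a call lost without bone marrow replicate 1 or 3 or lung replicate 1 or 2 (0.0537 to 0.0904). Eno2 was not well above background in bone marrow, at 6.54, 6.38 and 6.57, and was at 6.89, 6.83 and 6.89 in lung. The measured difference of 0.37 was called (adjusted p = 0.00282 in limma). Against the background level, lung was at least 1.26-fold higher, and this bound itself was not tested.

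Of the lactate genes, Slc16a1 was lower in mock lung, at 8.02, 7.88 and 7.80 in bone marrow and 7.34, 7.33 and 7.36 in lung (-0.56, adjusted p = 0.000407). Ldha did not pass at 0.01 (adjusted p = 0.973), although its other 2 probes differed by -0.43 and 1.31. Aldoa, Pgam1, Pkm, Pfkm, Hk1, Pdk1, Slc16a3, Bnip3, Egln1, Egln3, Ankrd37, Car9 and Ndrg1 were not called, with differences from -0.28 to 0.49. For Hk1, both dimmer probes were lower in lung, by -1.01 and -0.82.

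**Figure D4:**
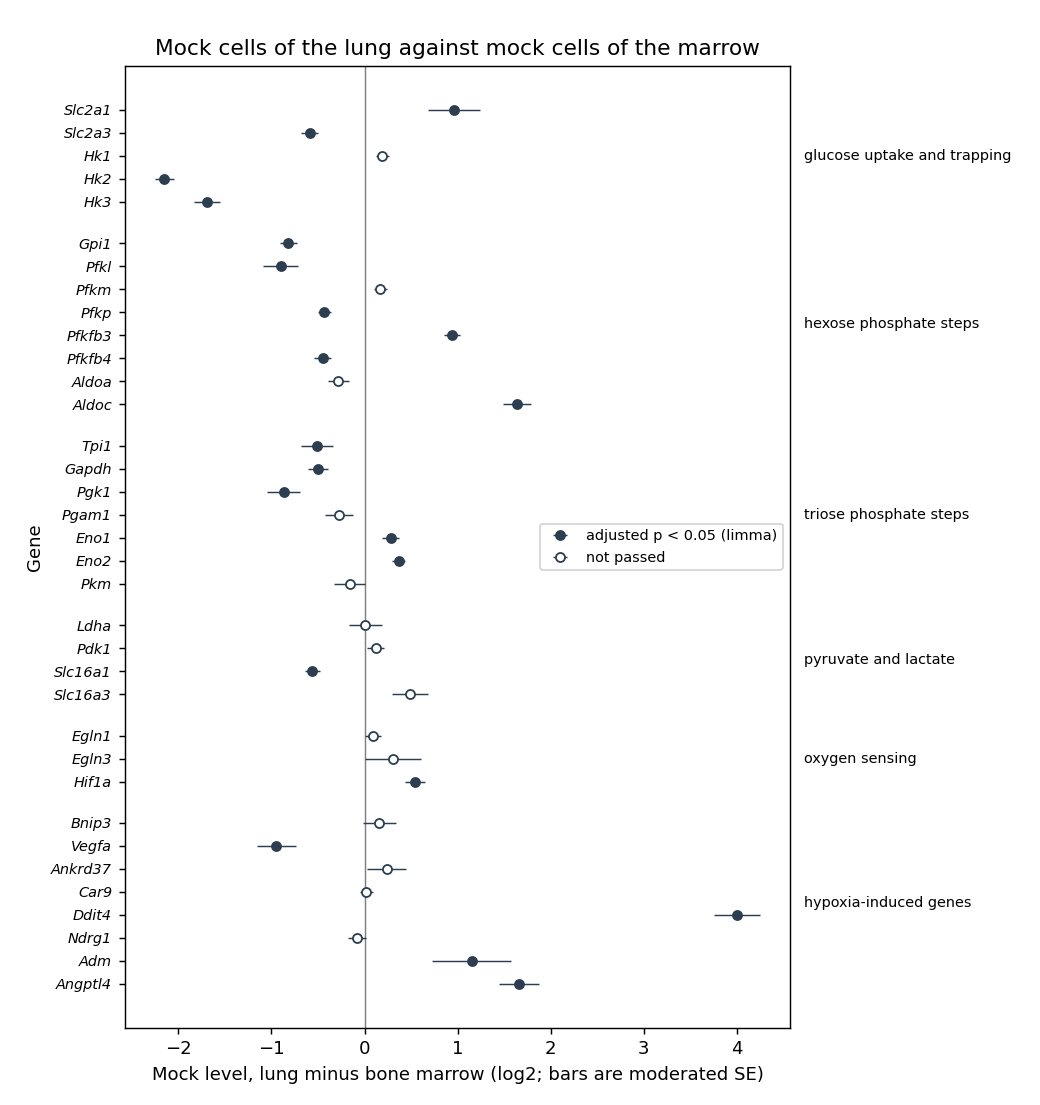
Difference in mock log2 level, lung minus bone marrow (horizontal axis), for each of the 35 genes; bars are the moderated SE and filled points have an adjusted p below 0.05 in limma. Ddit4 lies at 4.0, and Hk2 and Hk3 lie at -2.15 and -1.69.

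Other genes of these pathways were taken from lists beside the members. Their counts stand beside 7.25% of all genes higher and 7.14% lower in bone marrow, and 20.0% higher and 14.0% lower in lung. Of 25 further glycolysis and lactate genes, 2 rose and 1 fell in bone marrow, and 5 rose and 3 fell in lung. Those with the smallest p in bone marrow were Tigar, which lowers the activator of phosphofructokinase (0.68), Adpgk (-0.59) and the fructose transporter Slc2a5 (0.41). In lung they were Pdk4 (0.41), Pgm2 (-0.50), the glucose transporter Slc2a8 (0.67) and the pyruvate carrier Slc16a7 (0.48). The pentose phosphate pathway, which branches off glucose 6-phosphate, had falls only among its calls: 2 of 7 in bone marrow (Taldo1 -0.51 and Pgd -0.32) and 4 of 7 in lung, among them G6pdx, its entry enzyme, at -0.65 ± 0.10 (adjusted p = 0.000703), Taldo1 at -0.41 and Rpe at -0.34. The median over the 7 was -0.12 in bone marrow and -0.23 in lung, where the members of glycolysis at the triose steps had medians of 0.07 and 0.44.

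Of 7 glycogen genes, 3 rose and 2 fell in lung, with Pygb at 0.66, Gys1 at 0.36 and Pygl, the glycogen phosphorylase of liver and blood cells, at -0.60. Pygl also fell in bone marrow (-0.55). Of 21 genes of pyruvate entry and the citric acid cycle, 1 rose and 1 fell in bone marrow (Mpc2 0.33 and Idh3g -0.26), and 1 rose and 2 fell in lung (Idh3b 0.28, Pdhb -0.29 and Idh3g -0.29). No called gene of that list moved by more than 0.33 in either tissue.

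Of 8 further factors and regulators of the hypoxia pathway, 2 fell in bone marrow, namely Siah2, a ligase that degrades the prolyl hydroxylases (-0.59), and the hydroxylase Egln2 (-0.55). In lung Siah2 fell (-1.06 ± 0.07, adjusted p = 0.000177), Cited2, which competes with Hif1a for its coactivator, fell (-0.35), and Hif3a rose (0.88 ± 0.20, adjusted p = 0.000364). Of 23 further Hif targets, 1 rose and 3 fell in bone marrow, and 5 rose and 3 fell in lung. The histone demethylase Kdm3a fell in both tissues (-0.67 and -0.44), and the chemokine receptor Cxcr4 rose in bone marrow (0.44) and fell in lung (-0.47). P4ha1, a collagen hydroxylase (0.61), rose in lung, and Higd1a, a mitochondrial protein (-0.56), fell there. The median over these targets was -0.03 in bone marrow and 0.02 in lung, against 0.024 and 0.014 for all genes.

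Beside Ddit4, 9 genes of stress and glucocorticoid signalling gave 2 rises and 2 falls in bone marrow and 3 rises and 2 falls in lung. Fkbp5, a glucocorticoid-induced gene, was higher in treated lung by 1.96 ± 0.12 (adjusted p = 7.42e-05), Tsc22d3, another, fell in bone marrow (-0.57) and rose in lung (0.92), and Trib3, a stress gene, rose in bone marrow (0.91). Beside Angptl4, 3 of 10 PPAR targets rose and 1 fell in bone marrow, and 6 of 10 rose in lung. Acot1 rose in both (1.07 and 0.46), as did the lipid droplet protein Plin2 (0.65 and 0.86), and the fatty acid carriers Cd36 (1.47) and Fabp4 (1.08) rose in lung.

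Markers of other cells also moved, many in lung and few in bone marrow. In lung, 13 of 13 macrophage markers were higher in treated cells, and their summed level was 39200 to 62200 intensity units in mock and 193000 to 250000 in treated samples. Higher too were 11 of 12 alveolar macrophage markers (100000 to 153000 against 174000 to 284000), 8 of 13 neutrophil markers (40800 to 77900 against 94200 to 190000), 5 of 8 lung epithelial markers (19000 to 35700 against 69500 to 107000) and 6 of 7 endothelial markers (10900 to 14800 against 24300 to 31700). Of the B cell markers, 5 of 6 were lower and Blnk was higher (1.78). Their sum, which includes Blnk, was 5250 to 8040 in mock and 8320 to 9770 in treated lung. Of 7 T and NK cell markers, 4 were lower (3950 to 4250 against 2680 to 3260). Of the 10 monocyte markers, 2 were higher and 3 lower in lung, and 1 was higher and 3 lower in bone marrow. Ccr2 and S100a4 were lower in both tissues, and Csf1r was lower in bone marrow (-1.14) and higher in lung (0.76). In bone marrow 1 of 13 macrophage markers was called lower, and 0 of 13 neutrophil markers were called. The sum of the macrophage markers there was 16100 to 18900 in mock and 8320 to 13800 in treated cells. Its brightest marker, Apoe, had a mean log2 ratio of -0.86 that did not pass (adjusted p = 0.0792 in limma). The sum of the neutrophil markers was 460000 to 482000 and 492000 to 531000. The sum of 6 stem and progenitor markers was 3160 to 3730 in mock and 10800 to 14400 in treated bone marrow, with Cd34 (3.17-fold) and Ly6a (4.29-fold) called higher. That of 7 endothelial markers was 2280 to 2380 and 3260 to 3950, with 1 called higher. The defining macrophage markers Mertk, C1qa, Folr2 and Lyve1 and the surfactant genes Sftpa1, Sftpb, Sftpc and Sftpd were not well above background in mock bone marrow cells. The part of these cells in the bone marrow rises of Angptl4, Ddit4, Pfkp, Pgk1, Pgam1 and Ldha, in the lung rises of Slc2a3, Aldoc, Gapdh, Eno1, Eno2 and the other members, and in the tissue difference of mock cells, was not tested.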

How the data were processed

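Per the labels, RNA of sorted M-MDSCs was hybridised to 6 dual-colour Agilent arrays with mock RNA in Cy3 and treated RNA in Cy5. The authors deposited scanner files which, per the file headers, give the intensity of each spot from Agilent Feature Extraction 10.7.3.1, the log10 ratio of its processed intensity values, and probe positions on mm9. The matrix the authors deposited holds log2 ratios per spot, made with limma per the submitters' processing notes; it correlated with Cy5 over Cy3 at 0.9995 or more across 43173 spots, although its headings name mock over treated. The dyes of the labels were followed.

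Mean signals were corrected with normexp (offset 50) and loess in limma 3.58.1 (R 4.3.3, statmod 1.5.0). Probes were kept if 2 or more arrays of a tissue had them well above background in the mock or in the treated channel, leaving 27695 of 39429. The brightest probe stood for each of 22097 genes. One mean per tissue was fitted with empirical Bayes moderation over all 6 arrays, and p-values were adjusted by Benjamini-Hochberg over all genes. Mock levels are Cy3 values after the average log intensities of the spots over both dyes were given the same distribution on every array (Aquantile in limma). Two-sided moderated tests were used, and SDs are over 3 arrays. The fit was tested on simulated data.

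The labels call the samples biological replicates. The log2 ratios of arrays with the same number correlated between tissues at 0, 0.12 and 0.05 after centring within tissue. These values cannot show whether the same mice gave both tissues. The tissues were compared without pairing, with replicate number as a block as the alternative. Every member was named, with up to 4 genes of smallest p per further list; 1 result of the glycogen list is not reported here. The members and lists were chosen with earlier results of these data known. Alternatives covered background, normalisation, filters, probe choice, single arrays and the design. Promoters are from RefSeq (GRCm38.p6); exons behind a probe were not analysed here.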

Additional observations from a re-analysis of the deposited data

Results flagged for a closer look

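The response differed between tissues by limma's test of the difference itself for 7 members, given as lung minus bone marrow in log2. It was larger in lung for Pfkfb4 (1.03), Aldoc (0.99), Slc2a3 (0.83), Eno2 (0.44) and Eno1 (0.39), and smaller in lung for Ddit4 (-1.87) and Ndrg1 (-1.04). Ddit4 and Pfkfb4 went in opposite directions in the tissues on all 6 arrays.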

How the results depend on the processing

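With 3 arrays per tissue, no dye exchange and 1 slide per tissue, differences of the size of Car9 lie near what the design can show. Median centring in place of loess gave 0 called members in bone marrow, 3 in lung and 0 for the tissue difference, with unadjusted p under 0.05 for 10, 10 and 5 members; over all genes it called 0, 964 and 33. It moved the median of all genes from 0.024 to 0.201 in bone marrow and from 0.014 to 0.122 in lung, and that of the members to 0.46 and 0.39; 15 of 35 means in bone marrow, 4 in lung and 12 tissue differences changed sign, none of them called, and the median difference of the members went from 0.16 to -0.12. The scanner software's processed signals gave 8 members in lung, and scaling between arrays gave 4 in bone marrow. The cause of these shifts was not tested. Leaving out 1 array gave 2 to 9 members in bone marrow (3, 3 and 2 without bone marrow replicates 1, 2 and 3; 5 without lung replicate 2), 9 to 15 in lung (9 without lung replicate 2), 4 to 6 for the difference and 18 to 23 for mock cells.

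Averaging all probes of a gene reversed the mock difference of Pfkfb3 (-0.2), Gapdh (0.41) and Vegfa (0.98), whose probes disagree. The replicate block gave 5 members for the difference and 19 for mock cells: Eno1, Eno2 and Ndrg1 lost and Angptl4 gained the call of a difference (adjusted p = 0.0836, 0.0661, 0.0632 and 0.0137), and Eno1 and Tpi1 lost that in mock cells (0.0589 and 0.053). Across all alternatives run, 3 of 15 lung calls (Slc2a3, Aldoc and Ndrg1), 0 of 8 in bone marrow, 0 of 7 differences and 13 of 21 mock calls were kept. No called treatment ratio changed sign under any of them.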
